A study of Mus musculus with 9 samples.

Results

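The Hox genes of the 4 mouse clusters were followed at their transcription start sites (TSS) in heart muscle nuclei after birth. Members were the table rows whose gene symbol is Hoxa, Hoxb, Hoxc or Hoxd followed only by digits. There were 32 of them among 33844 TSS regions, and all 32 were among the 33747 regions that could be tested. The RefSeq annotation of GRCm38.p6 lists 39 such genes. The others had no row in the TSS counts used here.

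Open DNA was read out by ATAC-seq, which uses a transposase that cuts and tags accessible chromatin. The nuclei were those of heart muscle cells from CD1 (ICR) mice on day 1 (P1), day 14 (P14) or day 56 (P56) after birth, with 3 libraries per stage that are described as biological triplicates. Every library came from pooled hearts, 12 at P1 and 6 to 7 at the later stages, and from nuclei sorted on Pcm1, a protein of the cardiomyocyte nuclear envelope. The labels name no transgene or agent at any of the 3 stages. The growth protocol mentions surgery without stating whether these hearts underwent any, and neither sex nor batch is given.

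Hox genes encode homeodomain transcription factors that tell cells their place along the head-to-tail axis. Within each cluster the genes lie in the order of the body level at which they act, from anterior through central to posterior, and Polycomb complexes keep genes silent in tissues outside their domain. Retinoic acid and Cdx factors open the clusters in the embryo, Trithorax proteins maintain the active state, and Pbx and Meis proteins bind DNA together with Hox proteins. In heart development, anterior Hox genes mark a posterior subdomain of the second heart field, whose cells build the atria and the outflow tract.

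The measured genes comprised 7 of 11 annotated Hoxa genes (spanning chr6:52169059-52240854), 10 of 10 Hoxb genes (chr11:96194316-96368254), 8 of 9 Hoxc genes (chr15:102921131-103036856) and 7 of 9 Hoxd genes (chr2:74668225-74748271). By paralogue number, 5 were anterior (groups 1 to 3), 15 central (4 to 8) and 12 posterior (9 to 13).

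Promoters from RefSeq (GRCm38.p6, 250 bases before to 50 after a gene's annotated start) were at hand for 17 of the 32 genes, as 19 sequences. The 5 printed here are shown to compare CG content between genes of unlike level, and are those of the genes on which the later results turn. Hoxd3 (chr2:74711743-74712042, plus strand) had the highest TSS level of all Hox genes and Hoxa3 (chr6:52213018-52213317, minus strand) the lowest. Hoxa7 (chr6:52218524-52218823, minus strand) had a high level with few CpG pairs, Hoxb4 (chr11:96318017-96318316, plus strand) had the smallest p in the comparison of P14 with P56, and Hoxd12 (chr2:74674763-74675062, plus strand) is overlapped by a deposited peak. Capitals mark CG dinucleotides, 5′ to 3′ on the gene's strand.
Hoxd3: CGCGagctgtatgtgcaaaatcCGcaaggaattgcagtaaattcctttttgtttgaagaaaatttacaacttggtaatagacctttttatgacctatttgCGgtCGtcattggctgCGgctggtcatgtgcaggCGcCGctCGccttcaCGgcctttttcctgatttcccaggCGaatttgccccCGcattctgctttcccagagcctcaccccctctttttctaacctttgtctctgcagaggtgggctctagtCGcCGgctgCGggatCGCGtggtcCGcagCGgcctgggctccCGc
Hoxa3: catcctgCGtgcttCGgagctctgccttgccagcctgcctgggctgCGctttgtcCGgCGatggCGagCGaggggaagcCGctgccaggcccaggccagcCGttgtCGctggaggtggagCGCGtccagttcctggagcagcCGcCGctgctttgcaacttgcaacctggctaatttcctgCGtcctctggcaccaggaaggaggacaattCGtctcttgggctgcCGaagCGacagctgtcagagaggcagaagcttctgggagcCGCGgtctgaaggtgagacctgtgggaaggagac
Hoxa7: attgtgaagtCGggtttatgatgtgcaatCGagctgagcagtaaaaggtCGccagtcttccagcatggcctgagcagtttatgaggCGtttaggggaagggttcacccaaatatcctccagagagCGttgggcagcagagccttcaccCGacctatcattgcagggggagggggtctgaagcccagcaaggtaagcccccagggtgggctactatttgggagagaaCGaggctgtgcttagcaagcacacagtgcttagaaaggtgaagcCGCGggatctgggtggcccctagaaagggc
Hoxb4: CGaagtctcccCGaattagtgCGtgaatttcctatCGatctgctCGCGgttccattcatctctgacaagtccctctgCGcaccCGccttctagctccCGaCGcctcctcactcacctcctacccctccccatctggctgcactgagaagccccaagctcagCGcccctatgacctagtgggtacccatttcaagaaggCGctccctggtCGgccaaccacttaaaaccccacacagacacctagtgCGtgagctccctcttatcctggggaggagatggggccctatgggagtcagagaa
Hoxd12: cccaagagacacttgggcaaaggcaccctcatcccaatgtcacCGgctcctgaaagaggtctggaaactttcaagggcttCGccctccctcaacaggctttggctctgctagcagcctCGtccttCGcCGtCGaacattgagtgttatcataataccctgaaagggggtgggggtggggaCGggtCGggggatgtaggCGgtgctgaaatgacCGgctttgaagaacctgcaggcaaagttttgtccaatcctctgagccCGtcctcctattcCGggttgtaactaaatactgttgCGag
Hoxd3 and Hoxa3 stand at opposite ends of the Hox levels, and each holds 20 CG pairs in its window. Hoxa7 holds 9, Hoxb4 holds 14 and Hoxd12 holds 13. Over the 19 Hox promoters the median was 13 CG pairs and a GC content of 57.3%, beside 12.0 pairs and 56.3% over the 18880 promoters of measured genes. The range ran from 4 pairs in the promoters of Hoxa9, Hoxd4 and a start of Hoxd11 to 37 in that of Hoxd13. Genes such as Hoxd3 have several starts, and which start the counts surround is not stated, so a printed window may lie away from the counted region.

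Both strands of the windows were searched for TGATTNAT, a motif of Hox with Pbx, and for TGACAG, the core motif of Meis proteins. Matches of both can share no more than an end base. TGATTNAT was present in 1 of 19 promoters of measured Hox genes (5.26%), a start of Hoxd11. It was in 2.56% of the 18880 promoters of measured genes and in 3.22% of all 32851 promoters of the same length. TGACAG was present in 1 of 19 (5.26%), that of Hoxa3, in 18.6% of the promoters of measured genes and in 19.2% of all promoters. The window of Hoxa2, which had no row in the counts, held 1 match of each. These are matches of letters only.

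Depth set the precision. P14 was the shallowest stage, with TSS totals of 481217 to 893032 counts per library. The P1 libraries held 1414979 to 2167369 and the P56 libraries 874639 to 1468352. The 32 Hox genes together received 463 to 927 counts in a P14 library, 1362 to 1950 in a P1 library and 844 to 1115 in a P56 library. A single Hox gene had between 3 and 81 counts in a P14 library. Levels are given as CPM, counts scaled to the TMM-normalized library total, and levels of different genes are compared on the assumption that each TSS region has the same width, which is not stated. Cardiomyocyte markers were the most open of the marker lists, with a median of 145 CPM over 8 genes. For the measured markers of other cell types the medians were 37.3 CPM for 6 endothelial, 32.3 for 6 fibroblast, 31.8 for 4 epicardial, 24.8 for 6 glial and neuronal, 22.6 for 6 smooth muscle and pericyte, 21.1 for 6 leukocyte and 11.9 for 3 erythroid genes. The erythroid genes Hbb-bs and Hbb-bt were not measured. No measured marker was at 0 in any library. Every region averaged at least 10 counts, so this cannot show which cells were present. Accessibility at a TSS is not expression, and in these pooled nuclei fewer cells of a type and less signal per cell cannot be told apart.

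The 32 measured Hox TSS regions had a middling level among the tested regions. Their median over all libraries was 24.5 CPM, beside 18.9 CPM for all regions tested, and 24 of 32 lay above the median of all regions. Only regions with a mean of at least 10 counts enter this comparison. Hoxd3 alone reached the top 10% of regions. The cluster medians were close together, at 21.7 CPM for Hoxa, 24.8 for Hoxb, 27.1 for Hoxc and 24.5 for Hoxd. By position, the 5 anterior genes had a median of 32.1 CPM, the 15 central genes 21.7 and the 12 posterior genes 24.2. The anterior group held both ends of the range, Hoxa3 and Hoxd3, so its median rests on few and unlike genes.

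**Figure D1:**
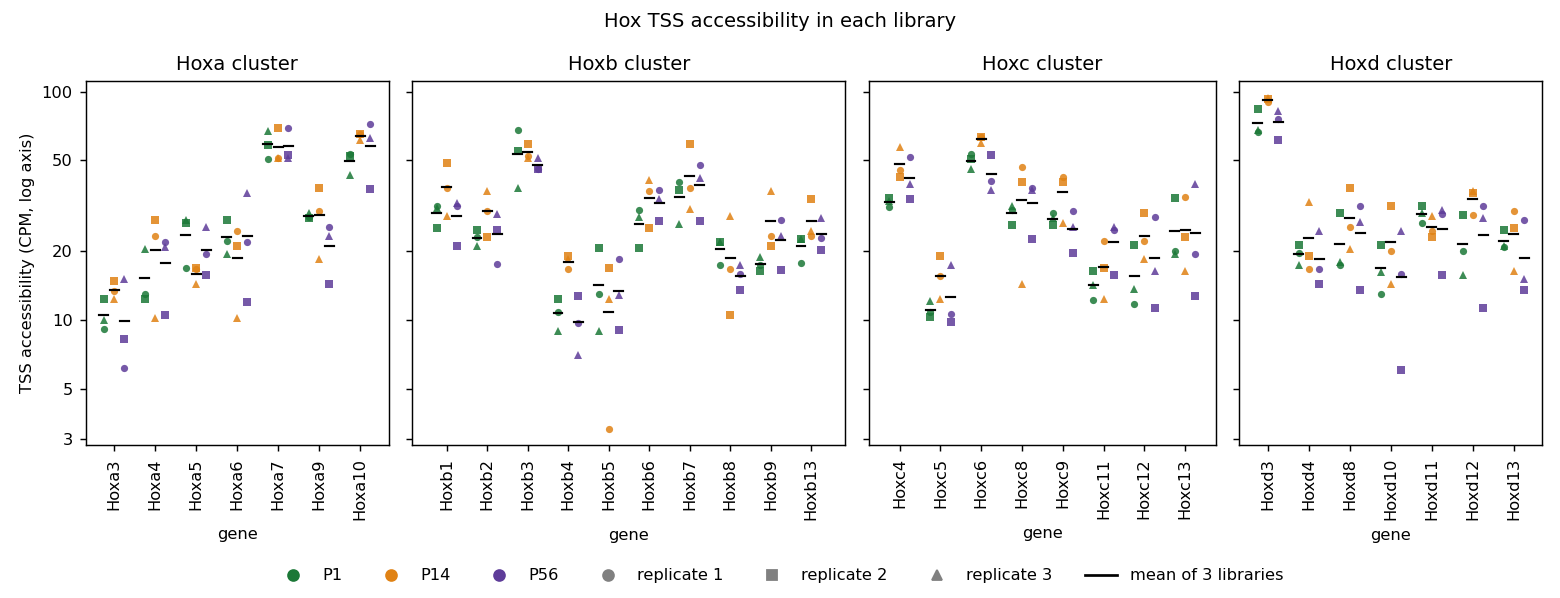
TSS accessibility of the 32 Hox genes (CPM, log axis) in each of the 9 libraries, by cluster and paralogue number. Points are libraries, colours are stages, symbols are replicate numbers and black bars are means of 3 libraries. Hoxd3 stands above all other Hoxd genes in every library, whereas the stages of most genes overlap.

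Hoxd3 (ENSMUSG00000079277, chr2:74711993-74748271), an anterior gene that shapes the uppermost vertebrae, had the highest level. Its values were 66.9, 83.6 and 68.3 CPM at P1, 89.96, 92.8 and 94.2 at P14, and 75.8, 61.7 and 82.7 at P56. Its lowest library, at 61.7 CPM, lay above the highest library of Hoxd11, at 31.5, which is next in the cluster. No other Hox gene was set apart in this way from the next in its own cluster. Its 2 measured paralogues differed from it and from each other: Hoxb3 (ENSMUSG00000048763, chr11:96307101-96347930), which acts in the hindbrain, ranged from 37.8 to 67.8 CPM, and Hoxa3 (ENSMUSG00000079560, chr6:52169059-52213067), needed for thymus and parathyroid, from 6.17 to 15.2.

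The other clusters had their highest levels at different positions. In Hoxa, Hoxa7 (ENSMUSG00000038236, chr6:52215623-52218573), a patterning gene of the trunk, averaged 58.0 CPM and Hoxa10 (ENSMUSG00000000938, chr6:52231197-52240854), required in lumbar vertebrae and uterus, 57.1. Hoxa7 exceeded Hoxa10 in 4 of 9 libraries, so their order is not fixed, but Hoxa10 exceeded the next gene, Hoxa9, in 9 of 9. In Hoxb, the anterior gene Hoxb3 at 51.8 CPM was followed by Hoxb7 at 38.7, which was lower in 7 of 9 libraries. In Hoxc, Hoxc6 at 51.8 CPM was followed by Hoxc4 at 41.0, lower in 7 of 9. The lowest genes were Hoxa3 and Hoxa4 (17.8 CPM), Hoxb4 and Hoxb5 (12.9 and 12.8), Hoxc5 and Hoxc11 (13.1 and 17.8) and Hoxd10 and Hoxd4 (18.1 and 20.2). Hoxb4 and Hoxb5 could not be ordered, since Hoxb4 was higher in 4 of 9 libraries. All genes other than Hoxd3 overlapped the next in rank.

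Paralogues differed in level in some groups and not in others. Of the group 4 genes, Hoxc4 averaged 41.0 CPM, while Hoxd4, Hoxa4 and Hoxb4 averaged 20.2, 17.8 and 12.9. The group 5 genes Hoxa5, Hoxc5 and Hoxb5 were all low, at 20.0, 13.1 and 12.8 CPM. The group 13 genes Hoxb13, Hoxc13 and Hoxd13 lay close together, at 23.98, 24.4 and 21.6 CPM. As a description over the 32 genes, Spearman's rho between 2 libraries was 0.613 to 0.900 within a stage (median 0.771) and 0.604 to 0.926 between stages (0.784). Over all regions it was 0.787 to 0.882 (0.841) and 0.749 to 0.874 (0.819), so by the medians the order of the Hox genes was no more alike between libraries than that of all regions. The libraries of 1 gene share its sequence and region, so these values carry no p.

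**Figure D2:**
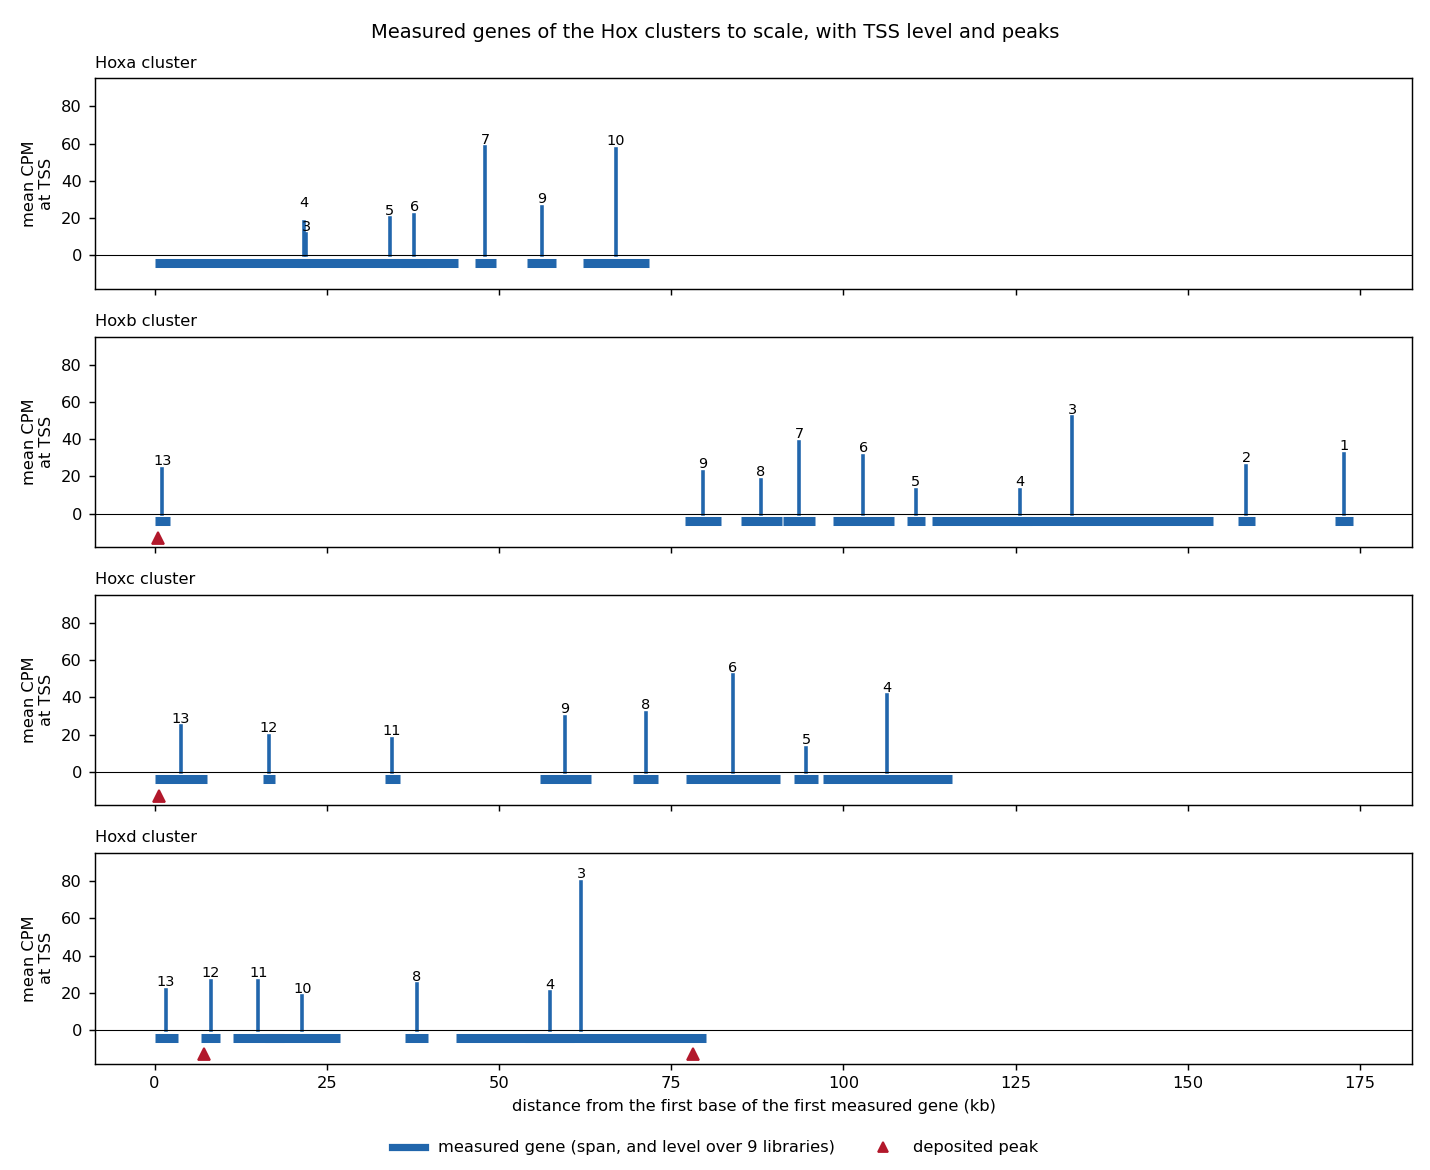
The measured genes of the 4 Hox clusters drawn to scale by distance from the first base of the first of them (kb), with gene spans below the line, mean TSS level over 9 libraries as bars at the middle of each span (CPM) and deposited peaks as red triangles. Numbers are paralogue numbers. Hoxd3 is the tallest at 79.6 CPM, Hoxa7 and Hoxa10 stand above the other Hoxa genes, and the 4 peaks lie in Hoxb, Hoxc and Hoxd.

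The comparison of P14 with P1 covers the first weeks after birth. No Hox TSS region passed the test, 0 of 32, against 0.0119% of all regions (edgeR quasi-likelihood test, Benjamini-Hochberg adjusted p under 0.05). DESeq2 called 0 as well, against 0.00296% of all regions. Of the 32, 2, Hoxb4 and Hoxc4, had an unadjusted edgeR p below 0.05, where 8.59% of all regions did. The Hox values nevertheless leaned to one side. The log2 change was above 0 for 26 of 32 genes, beside 50% of all regions, and its median was 0.35 (1.28-fold), beside 0.00 for all regions. It was above 0 for 20 of the 27 genes that had a mean of at least 20 counts, with a median of 0.26, and the median was between 0.21 and 0.38 in the 19 alternative analyses. This lean is a description of the list without a test of its own.

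Hoxb4 (ENSMUSG00000038692, chr11:96318267-96321638), known for its role in blood stem cells, had 10.9, 12.3 and 8.93 CPM at P1 and 16.7, 19.0 and 18.4 at P14. All P14 libraries lay above all P1 libraries. The log2 difference was 0.74 ± 0.331 (SE), with an edgeR p of 0.0326 that became 0.558 after adjustment. Hoxc4 (ENSMUSG00000075394, chr15:103018097-103036856), a cervical patterning gene, had 31.3, 34.3 and 33.1 CPM at P1 and 45.5, 42.2 and 57.4 at P14. Its stages did not overlap, and its log2 difference was 0.55 ± 0.254 (edgeR adjusted p = 0.562).

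Hoxd12 (ENSMUSG00000001823, chr2:74675013-74677705), a gene of the distal limb, had 20.0, 28.8 and 15.8 CPM at P1 and 28.9, 35.9 and 36.9 at P14. The lowest P14 value was barely above the highest P1 value. The difference for Hoxd12 was 0.65 ± 0.319 (edgeR adjusted p = 0.582). For Hoxd3 it was 0.34 ± 0.188 (edgeR adjusted p = 0.613), and its P14 libraries, at 89.96 to 94.2 CPM, lay above those of P1, at 66.9 to 83.6. Hoxa10 had 53.5, 52.1 and 43.0 CPM at P1 and 65.5, 65.4 and 61.5 at P14, again without overlap. Hoxb9 (chr11:96271330-96276595), which acts with its paralogues in the thoracic skeleton, had 17.4, 16.4 and 18.9 CPM at P1 and 23.3, 21.1 and 36.9 at P14. Hoxc12 (chr15:102936826-102938609), a posterior gene, had the largest difference after Hoxb4 and Hoxd12, 0.62 ± 0.340, with 11.7 to 21.2 CPM at P1 and 18.4 to 29.5 at P14.

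Hoxa5 (ENSMUSG00000038253, chr6:52201754-52204587), needed for lung and airway formation, leaned the other way. It had 16.95, 26.7 and 27.3 CPM at P1 and 16.7, 16.87 and 14.3 at P14, for a log2 difference of -0.53 ± 0.320 (edgeR adjusted p = 0.65). The stages were separated only by the narrow gap between P1 replicate 1 and P14. In all, the libraries did not overlap in 10 of 32 genes. They were higher at P14 in 9 (Hoxa10, Hoxb4, Hoxb9, Hoxb13, Hoxc4, Hoxc5, Hoxc6, Hoxd3 and Hoxd12), beside 9.02% of all regions, and lower in 1, Hoxa5, beside 7.87%.

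The clusters did not lean equally in this comparison. Of the 8 Hoxc genes 8 were above 0, with a median of 0.38, and of the 10 Hoxb genes 8, with 0.36. Of the 7 Hoxd genes 6 were above 0, with 0.34. Hoxa was near balance, with 4 of 7 above 0 and a median of 0.02 (-0.12 with loess offsets). Its central genes Hoxa5, Hoxa6 and Hoxa7 were below 0 (-0.53, -0.22 and -0.05), with Hoxa4 above it (0.44). The difference between clusters was not tested. Anterior and posterior genes each had a median of 0.37, with 5 of 5 and 11 of 12 genes above 0. Without P1 replicate 1 these medians were 0.27 and 0.23, with 9 of 12 posterior genes above 0, and that of Hoxd was 0.21. Central genes had a median of 0.28, with 10 of 15 above 0, the exceptions being Hoxa5, Hoxa6, Hoxa7, Hoxb5 and Hoxb8. Without P14 replicate 2 their median was 0.16.

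**Figure D3:**
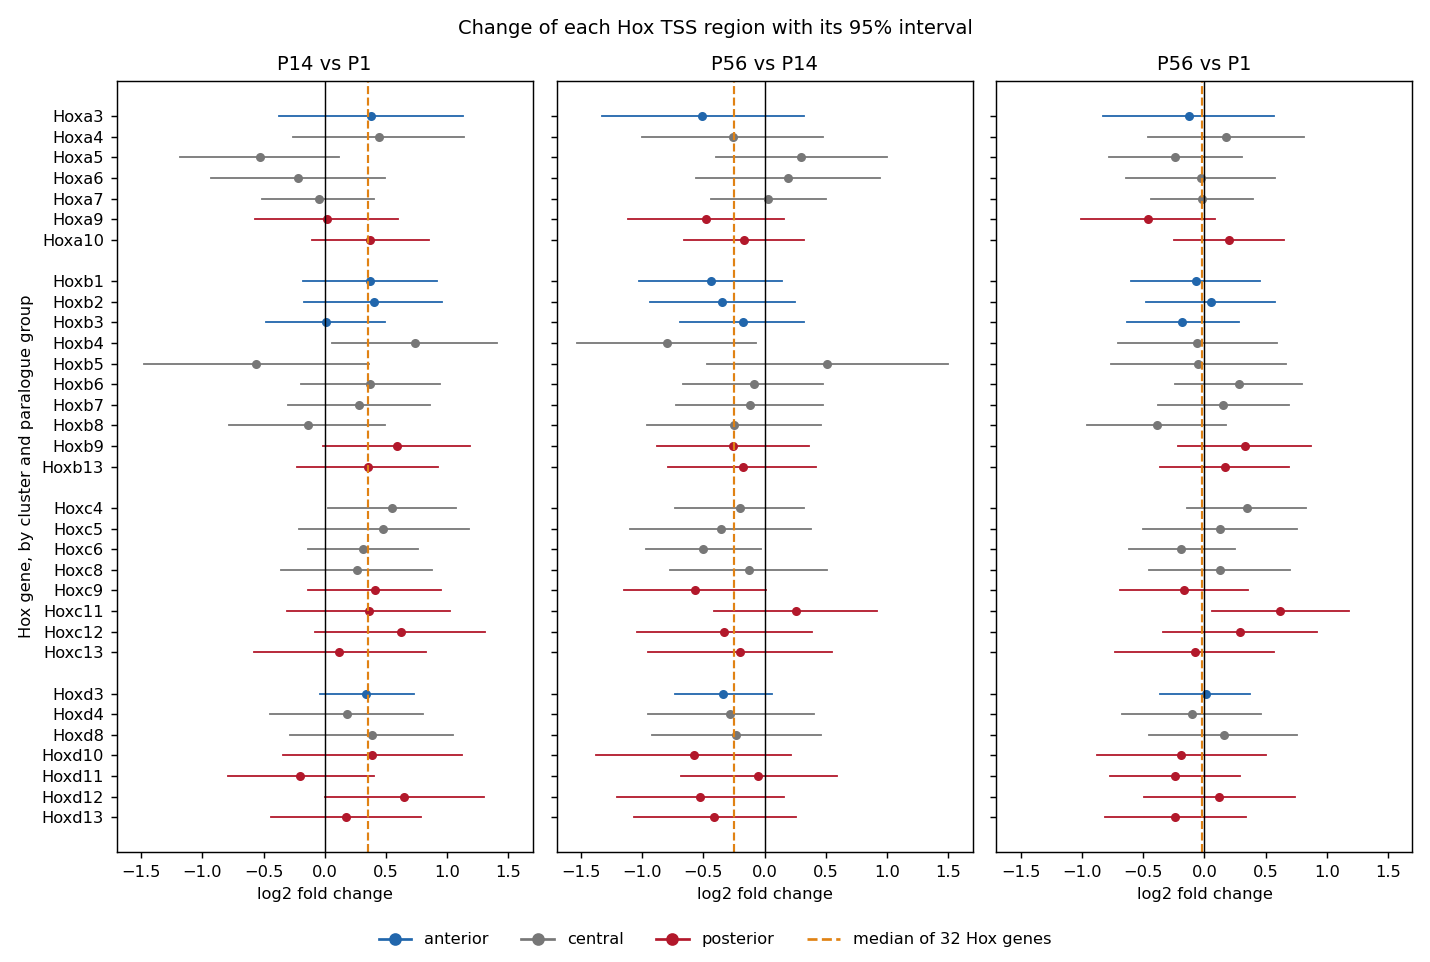
Log2 fold change of each Hox TSS region with its 95% interval in the 3 comparisons, coloured by position along the body axis. The solid line is 0 and the dashed line is the median of the 32 genes (0.35, -0.25 and -0.02 from left to right). The intervals that leave out 0 are those of Hoxb4 and Hoxc4, of Hoxb4 and Hoxc6, and of Hoxc11, and the first panels share the P14 libraries.

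The comparison of P56 with P14 covers the step from the juvenile to the adult heart and shares the P14 libraries with the one before, so the directions of both are tied. No Hox region passed the test, 0 of 32, against 0.00296% of all regions (edgeR). DESeq2 called 0 too, against 0.00296%. Of the 32, 2, Hoxb4 and Hoxc6, had an unadjusted edgeR p below 0.05, where 10.1% of all regions did. The log2 difference was above 0 for 5 of 32 genes, beside 48.4% of all regions, with a median of -0.25 beside -0.02 for all regions. That value rested on 1 library. Without P56 replicate 2 the median was -0.07 and 13 of 32 genes were above 0.

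Hoxb4 had 9.69, 12.8 and 6.99 CPM at P56, below its P14 libraries of 16.7 to 19.0. The log2 difference was -0.80 ± 0.360, and its edgeR p of 0.0334 became 0.454 after adjustment. Hoxc6 (ENSMUSG00000001661, chr15:102998226-103011882), a thoracic patterning gene, had 53.5, 50.7 and 45.7 CPM at P1, 63.3, 63.3 and 59.4 at P14, and 40.5, 52.7 and 37.3 at P56. Its P14 libraries lay above all others, and the P56 with P14 difference was -0.50 ± 0.232, with an edgeR p of 0.0391 that became 0.472 after adjustment. Hoxd3 also showed no overlap between P14 and P56, at -0.34 ± 0.194 (edgeR adjusted p = 0.57). Thus 3 genes were lower at P56 in every library, beside 6.96% of all regions, and 0 were higher, beside 7%.

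Among the others with small p, Hoxc9 (chr15:102977032-102984444), which specifies thoracic motor neurons, had 42.2, 40.1 and 26.6 CPM at P14 and 29.9, 19.6 and 25.6 at P56, which overlap. Hoxb1 (chr11:96365746-96368254), an anterior gene of the hindbrain and of second heart field progenitors, had 31.7, 25.4 and 31.0 CPM at P1, 37.8, 48.5 and 28.7 at P14 and 31.7, 21.1 and 32.6 at P56. Its 3 stages overlapped throughout. Hoxa3 had 13.3, 14.8 and 12.3 CPM at P14 and 6.17, 8.28 and 15.2 at P56, so its P56 replicate 3 was above every P14 library. Hoxa9 and Hoxd12, at -0.48 ± 0.314 and -0.53 ± 0.334, also overlapped.

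By cluster the medians were -0.17 for Hoxa, -0.22 for Hoxb, -0.26 for Hoxc and -0.34 for Hoxd, where 0 of 7 genes were above 0. Without P56 replicate 2 they were 0.08, -0.11, -0.04 and -0.13. By position the medians were -0.35 for anterior, -0.20 for central and -0.29 for posterior genes. Without that library they were -0.25, 0.05 and -0.07, and the 5 anterior genes were all below 0 with and without it.

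The main comparison, P56 with P1, sets the adult against the newborn. No Hox region was called, 0 of 32, against 2.53% of all regions (edgeR), and DESeq2 called 0 too, against 0.255%. The test of any difference among the 3 stages called 0 of 32, against 0.699% of all regions. In it 0 Hox genes had an unadjusted edgeR p below 0.05, where 17.8% of all regions did. DESeq2 called 0, against 0.113%. In the P56 with P1 comparison 1 gene, Hoxc11, had an unadjusted edgeR p below 0.05, where 21.6% of all regions did. The median log2 difference of the 32 genes was -0.02, beside -0.01 for all regions, and 15 were above 0, beside 49.3% of all. For 30 of 32 genes the 95% interval excluded a 2-fold difference in either direction, while for P14 with P1 this held for 19 and for P56 with P14 for 21. Of all 33747 regions tested it held for 21687, 21341 and 17090, in the same order of comparisons.

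Hoxc11 (ENSMUSG00000001656, chr15:102954526-102956701), a gene of the hindlimb and lumbosacral region, had 12.2, 16.4 and 14.2 CPM at P1, 22.2, 16.9 and 12.3 at P14 and 24.7, 15.8 and 25.6 at P56. Of the P56 libraries, 2 were above all P1 libraries and replicate 2 was among them. The log2 difference was 0.62 ± 0.275, and its edgeR p of 0.0321 became 0.189 after adjustment. Hoxa9 (ENSMUSG00000038227, chr6:52223097-52227370), known from blood formation and leukaemia, was the only gene whose P1 and P56 libraries did not overlap. It had 28.2, 28.1 and 29.4 CPM at P1 and 25.6, 14.3 and 23.3 at P56, for a difference of -0.46 ± 0.271 (edgeR adjusted p = 0.317). Thus 1 of 32 was lower without overlap, beside 13.2% of all regions, and 0 were higher, beside 10.9%.

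The remaining genes with the smallest p in their clusters were further from the threshold. Hoxb8 (chr11:96279401-96285325), which acts in myeloid cells, had 17.4, 21.9 and 22.1 CPM at P1 and 15.9, 13.5 and 17.5 at P56, and Hoxb9 had 27.3, 16.6 and 23.3 CPM at P56 against 16.4 to 18.9 at P1. Hoxc4 had 52.0, 33.9 and 39.6 CPM at P56, and Hoxa10 72.2, 37.6 and 62.9, each overlapping P1 through replicate 2. Hoxd11 (chr2:74679558-74687016), of the forearm and kidney, had 26.5, 31.5 and 29.4 CPM at P1 and 29.1, 15.8 and 30.3 at P56. Hoxd13 (chr2:74668225-74671603), the gene of digit malformations, had 20.9, 24.7 and 21.0 at P1 and 27.3, 13.5 and 15.2 at P56. P56 replicate 2 was the lowest P56 library in all 6 of these genes.

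By cluster, the P56 with P1 medians were -0.03 for Hoxa, 0.00 for Hoxb, 0.13 for Hoxc and -0.10 for Hoxd. By position they were -0.07 for anterior, -0.02 for central and 0.02 for posterior genes. These differences are smaller than what a single library moved. Without P56 replicate 2 the median of all 32 genes was 0.24 with 24 above 0, and the cluster medians were 0.06, 0.17, 0.32 and 0.13. Still 0 of 32 were called, where 147 of all 33756 regions were.

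Across the 9 libraries, summed Hox accessibility was 847, 933 and 826 CPM at P1, 1030, 1109 and 949 at P14 and 982, 684 and 983 at P56. The means were 869 ± 56.8 (SD, n = 3), 1029 ± 80.4 and 883 ± 173. Each P14 sum was above each P1 sum, and P56 held 2 libraries within the P14 range and 1 below every other library. As a share of unscaled TSS counts, P14 replicate 3 (0.0948%) lay below P1 replicate 2 (0.0963%), so P14 and P1 overlapped there. P14 had the highest stage mean for 25 of 32 genes, beside 31.4% of all regions, P1 for 5 and P56 for 2. P56 replicate 2 was the lowest of the 9 libraries for 14 of 32 Hox genes, beside 16.1% of all regions, and the highest for 0, beside 20.7%.

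**Figure D4:**
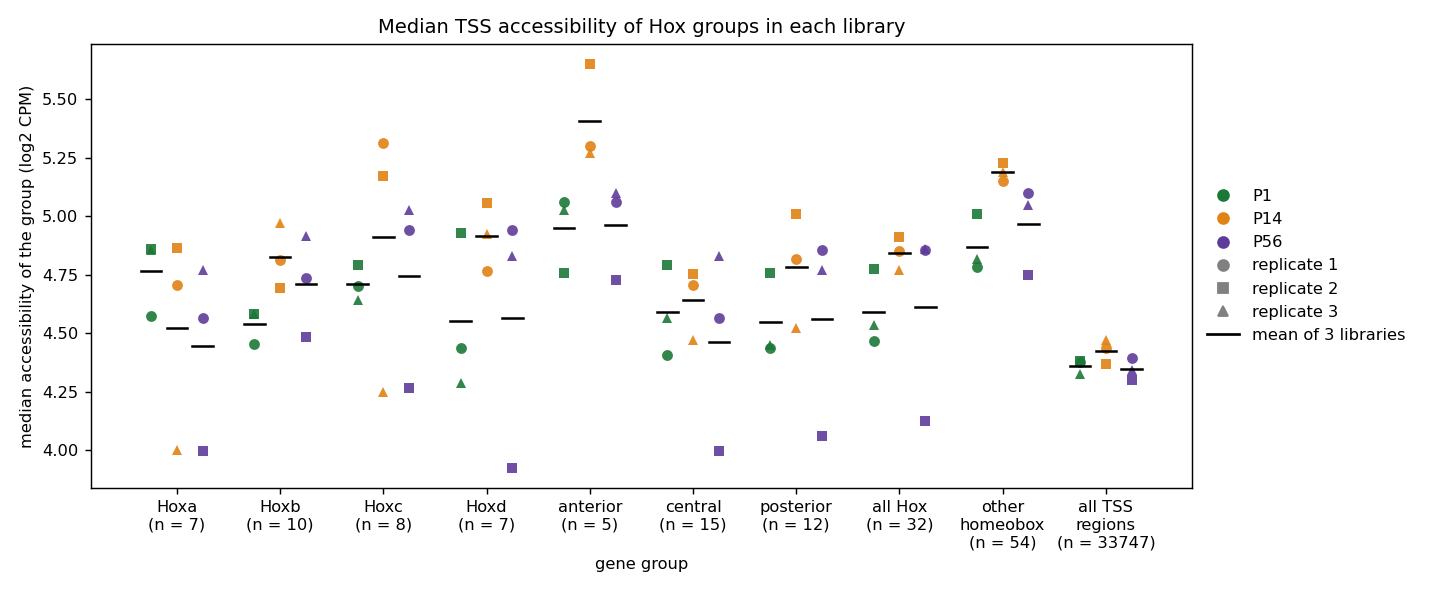
Median TSS accessibility (log2 CPM) of the Hox clusters, the position groups, all Hox genes, other homeobox regulators and all TSS regions in each library. Points are libraries coloured by stage with symbols for replicate numbers, and black bars are means of 3. P56 replicate 2 is the lowest library for all Hox genes (4.13 against 4.86 in both other P56 libraries), Hoxa, Hoxd, each position group and the other homeobox regulators. It is also the lowest for all regions, at 4.30 against 4.32 to 4.47 in the other libraries.

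Other measures moved with that library and with the stages. P56 replicate 2 had the largest share of TSS counts in the most accessible 10% of regions, 38.6%, against 32.6% to 36.1% in the other 8 libraries. Its mean over the 8 cardiomyocyte markers was 7.63 log2 CPM, against 6.36 and 6.83 in the other P56 libraries and 5.42 to 6.68 at P1. Of those 8 markers, 5 were called higher at P56 than at P1 by edgeR, beside 1.72% of all regions, and the median of the 8 was 0.87. Without that library edgeR called 0 of the 8, with loess offsets 0 and without P1 replicate 1 it called 1, and DESeq2 called 0. Of all regions these called 147 of 33756, 239 of 33747, 247 of 33494 and 86 of 33747, in the same order. The main fit called 853 of 33747. The summed markers of other cell types at P1, P14 and P56 ranged over 188 to 251, 258 to 289 and 208 to 230 CPM for endothelial, 103 to 108, 133 to 162 and 111 to 129 for epicardial, 123 to 143, 152 to 184 and 145 to 156 for smooth muscle and pericyte, and 241 to 279, 211 to 275 and 238 to 263 for fibroblast genes. For leukocyte genes the ranges were 130 to 160, 99.1 to 147 and 134 to 145 CPM, for erythroid genes 36.2 to 51.4, 19.0 to 36.9 and 30.3 to 32.4, and for glial and neuronal genes 204 to 228, 175 to 243 and 197 to 206. Endothelial, epicardial, smooth muscle, and glial and neuronal sums thus also reached their highest values at P14, where the last also had its lowest. In P14 with P1, 4 of 6 endothelial and 3 of 4 epicardial markers were above 0. For smooth muscle and pericyte markers this was 5 of 6, and for glial and neuronal ones 2 of 6. The part of depth, cell makeup and this library in the Hox values was not tested.

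The Hox values were also set beside those of regions of like level, without a test. All regions were ranked by mean level into 4 bins of equal size. From the lowest bin to the highest, their P14 with P1 medians were -0.28, -0.04, 0.12 and 0.11. The Hox genes in these bins, 1, 7, 17 and 7 in number, had medians of 0.38, 0.39, 0.35 and 0.31. In the P56 with P1 comparison the median of all regions went from -0.39 in the lowest bin to 0.26 in the highest. The Hox medians were between -0.13 and 0.01. These rest on P56 replicate 2, without which the median of all Hox genes was 0.24.

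Peaks gave a second measure of the same libraries. Of 25885 tested peaks (25915 deposited), 4 lay in the Hox clusters, none of them in Hoxa. The same 4 were found with no flank and with 5 kb on each side, and 5 were found with 50 kb. They overlapped Hoxb13 (chr11:96194367-96195312), a gene of the tail and prostate, Hoxc13 (chr15:102921039-102922401), of hair and nails, Hoxd12 (chr2:74674962-74675816) and the span of Hoxd3 (chr2:74745741-74747052). The first 3 lie at or next to the posterior end of their clusters.

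None of the 4 was called in any comparison (edgeR, 0 of 4, against 0.444%, 0.00773% and 0.00773% of all peaks for P56 with P1, P14 with P1 and P56 with P14). At an unadjusted p below 0.05 there were 0 of 4 in each, where 16%, 6.04% and 14.7% of all peaks were below it, and DESeq2 called 0 of 4 in each. The Hoxd12 peak had 21.4, 25.5 and 11.5 CPM at P1, 21.0, 40.5 and 34.7 at P14 and 27.6, 7.54 and 26.7 at P56. Its P14 with P1 difference of 0.68 ± 0.413 resembled that of the Hoxd12 TSS region, 0.65 ± 0.319, which shares reads with it. The Hoxd3 peak had 25.5, 34.4 and 27.8 CPM at P1, 26.3, 37.4 and 50.5 at P14 and 26.3, 17.9 and 33.4 at P56. The Hoxc13 peak had 23.0, 45.5 and 21.3 CPM at P1 and 31.5, 11.3 and 45.1 at P56, and the Hoxb13 peak 14.0, 18.9 and 22.9 at P1 and 23.6, 17.0 and 28.4 at P56. Their stages overlapped.

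Few Hox genes touched a peak. Of the 39 annotated Hox genes 4 did (10.3%), beside 19 of 60 other homeobox regulators (31.7%) and 11380 of 21900 protein-coding genes (52.0%). Hox genes are short, with a median of 3737 bp, beside 7799 bp and 17146 bp, so a peak has less room to fall in them. The difference was not tested at matched length.

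**Figure D5:**
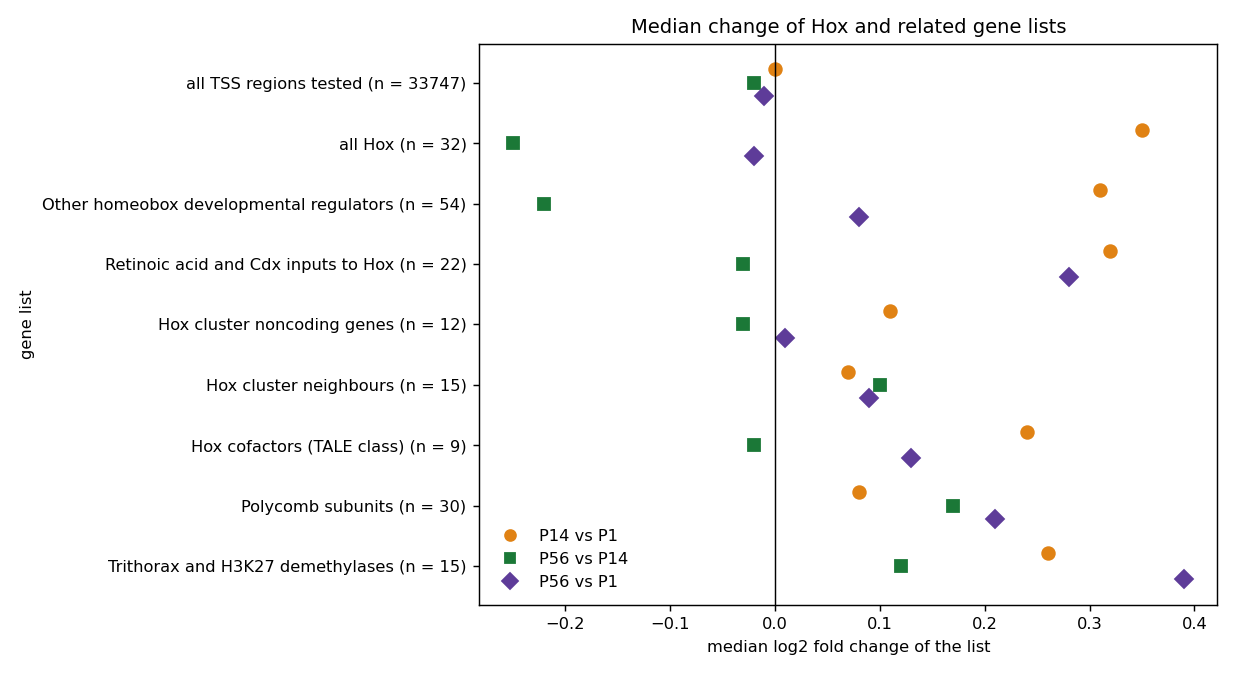
Median log2 fold change of the Hox genes, all TSS regions and 7 related gene lists in the 3 comparisons, with the number of measured genes in parentheses. The other homeobox regulators are at 0.31 and -0.22 in P14 with P1 and P56 with P14, and the Trithorax genes at 0.39 in P56 with P1.

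Related genes were described from lists made by known function; DESeq2 called none of their members in any comparison. The 54 measured homeobox regulators outside the clusters, such as Dlx, Lhx, Pax and Irx genes, had medians of 0.31 for P14 with P1 and -0.22 for P56 with P14, with 49 and 10 of 54 above 0. For the Hox genes these were 0.35 and -0.25. Without P56 replicate 2 the P56 with P14 median of the homeobox regulators was -0.09. None was called in any comparison (edgeR, 0 of 54). At an unadjusted edgeR p below 0.05 were 9, 6 and 6 for P14 with P1, P56 with P14 and P56 with P1. Of all regions 8.59%, 10.1% and 21.6% were below it. The smallest p in P56 with P1 belonged to Pitx3, an eye and midbrain factor, at 0.57 ± 0.170 (edgeR adjusted p = 0.0606). Irx5, a factor of the ventricular wall, was next at 0.81 ± 0.302 (0.12).

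Genes that act on the clusters leaned above 0 between P1 and P56. The Polycomb lean was absent with offsets that follow the level (loess), and the part of level in these leans was not tested. Of the 30 Polycomb subunits 26 were above 0, with a median of 0.21, against 15 and a median of 0.00 with loess offsets. None was called by edgeR, 0 of 30, and 9 had an unadjusted edgeR p below 0.05, where 21.6% of all regions did. Without P56 replicate 2 the median was 0.13, with 18 above 0. The Polycomb and Trithorax lists had median level percentiles of 86.3 and 86.4, and in the highest of the 4 level bins 78.9% of all regions were above 0, with a median of 0.26. Bmi1, a subunit of a complex that marks histone H2A, had the smallest p at 0.61 ± 0.214 (edgeR adjusted p = 0.102). It was followed by Kdm2b, a subunit that binds CpG-rich DNA, at 0.34 ± 0.124 (0.114). Of the 15 Trithorax and H3K27 demethylase genes 15 were above 0, with a median of 0.39 (0.28 and 12 above 0 without P56 replicate 2, 0.15 and 11 with loess offsets). EdgeR called 2 higher at P56, beside 1.72% of all regions. DESeq2 called 0, beside 0.255%, and edgeR with loess offsets 0, beside 239 of all 33747. At an unadjusted edgeR p below 0.05 were 7 of 15, beside 21.6% of all regions. Men1, the menin subunit of histone methyltransferase complexes, went from 70.9 ± 8.84 to 110 ± 21.3 CPM (SD, n = 3; log2 0.65 ± 0.180, edgeR adjusted p = 0.0439). Wdr5, their scaffold, went from 59.7 ± 3.70 to 94.2 ± 15.1 CPM (0.67 ± 0.185, edgeR adjusted p = 0.0449). Each kept its call in only 1 of the 10 analyses that left out libraries, and their adjusted p reached 0.262 and 0.251 over all alternatives.

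The 22 retinoic acid and Cdx genes had medians of 0.28 for P56 with P1 and 0.32 for P14 with P1, and 0 were called (edgeR). With loess offsets these medians were 0.15 and 0.20. At an unadjusted edgeR p below 0.05 were 8 and 5 of them, beside 21.6% and 8.59% of all regions. The retinoid receptor partners Rxrg (0.73 ± 0.224, edgeR adjusted p = 0.0655) and Rxrb (0.63 ± 0.184, 0.0564) came nearest in P56 with P1. The 9 Pbx, Meis and Pknox cofactors had a median of 0.13 for P56 with P1, and 0 were called (edgeR). None of them had an unadjusted edgeR p below 0.05, where 21.6% of all regions did. Pbx2 (0.35 ± 0.181, edgeR adjusted p = 0.254) and Meis2 (-0.29 ± 0.193, 0.385) pointed in opposite directions. The median of the 9 was -0.04 without P56 replicate 2 and -0.15 with loess offsets.

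Inside the clusters, 12 noncoding genes had medians of 0.11 for P14 with P1 and 0.01 for P56 with P1 (0.19 without P56 replicate 2), with 0 called (edgeR). Those at an unadjusted edgeR p below 0.05 were 0 and 0, beside 8.59% and 21.6% of all regions. At a mean count of at least 20 the P14 with P1 median was -0.06, with 3 of 9 above 0. Their smallest p in P56 with P1 belonged to Hoxaas3 (-0.43 ± 0.297) and Hoxb5os (0.36 ± 0.249), whose regions can overlap those of neighbouring Hox genes in counts without strand. The 15 genes flanking the clusters had medians of 0.07 for P14 with P1, 0.10 for P56 with P14 and 0.09 for P56 with P1 (-0.01 without P56 replicate 2), with 0 called (edgeR). Those at an unadjusted edgeR p below 0.05 were 2, 3 and 3, beside 8.59%, 10.1% and 21.6% of all regions. Nfe2l1, a stress response factor beside Hoxb, was at 0.45 ± 0.172 (edgeR adjusted p = 0.13) and Skap2, an adaptor protein beside Hoxa, at -0.59 ± 0.247 (0.16) in P56 with P1.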

How the data were processed

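Read counts per TSS region and per peak were deposited by the authors without normalization, per the file headers and values; the width of a TSS region, read filters and pooling for peak calls are not given in the sources used here. Per the submitters' processing notes the build was GRCm38, featureCounts 1.4.2 and bedtools 2.26 were used, as were MACS 1.4.0 and BWA 0.7.10, with no step assigned to any. Every deposited region averaged at least 10 counts over the 9 libraries.

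In edgeR 4.0.16 under R 4.3.3, the whole of each table was modelled (scaling by TMM, filterByExpr by stage, 1 coefficient per stage over all 9 libraries, two-sided quasi-likelihood F test, Benjamini-Hochberg over all regions, threshold 0.05), and only Hox and listed rows are printed. Alternatives were DESeq2 1.42.0, other scalings, loess offsets (span 0.3), leaving out libraries, a block for the replicate number, fits of 2 stages alone, and a filter set to none or to 20 counts on average. On simulated TSS counts the P56 with P1 fit over 33747 regions recovered 43.9% of 2-fold and 86% of 3-fold changes, with 9 false calls. On simulated peak counts over 25885 peaks it recovered 21.4% and 70.7%. The simulated counts took their spread from level alone, and changes were placed in regions drawn at random. These shares therefore need not hold for Hox regions, and recovery was not measured for comparisons with P14.

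The members and lists were chosen with earlier results of these data known. Genes given in full were the 2 with the smallest p per cluster and comparison, the 2 highest and 2 lowest per cluster in mean level, and those whose P1 and P56 libraries did not overlap. Of other lists these were the called members and the 2 with the smallest p in P56 with P1. Of the Hox peaks all 4 are given. Gene positions came from RefSeq, GRCm38.p6. The libraries are labelled biological triplicates of pooled hearts.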

Additional observations from a re-analysis of the deposited data

How the results depend on the processing

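The count of Hox TSS regions called stayed at 0 under the 19 alternatives of each pairwise comparison and the 18 of the test across stages, with a lowest adjusted p of 0.16 for P56 with P1, 0.234 for P14 with P1, 0.267 for P56 with P14 and 0.199 across stages. Hox peaks stayed at 0 under 21. Median log2 differences moved more: leaving out libraries gave -0.41 to 0.059 for Hoxa (-0.41 without P56 replicate 3), -0.029 to 0.17 for Hoxb (0.17 without P56 replicate 2) and -0.054 to 0.29 for central genes (0.29 without P56 replicate 2), all for P56 with P1. In P56 with P1, Hoxa10 changed sign with loess offsets (-0.0031) and ranged from -0.0094 (without P56 replicate 1) to 0.51 when libraries were left out, and Hoxd11 ranged from -0.39 to 0.033 (without P56 replicate 2). The cause was not tested. With library size alone the median of all regions was -0.14 and that of the Hox genes -0.15 for P56 with P1. In that comparison 853 regions of the whole table were called, 147 without P56 replicate 2, 247 without P1 replicate 1, 239 with loess offsets, 270 at a mean count of at least 20 and 86 by DESeq2. Deviations of same-numbered TSS libraries from their stage means correlated between -0.0748 and 0.219, and those of differently numbered ones between -0.274 and 0.249. For peaks the ranges were -0.178 to 0.445 and -0.5 to 0.489. With 3 libraries per stage the deviations sum to 0, so these values cannot decide whether replicate numbers pair the samples. With the replicate number as a block, 0 Hox regions were called and the Hox medians were -0.02, 0.36 and -0.24 for P56 with P1, P14 with P1 and P56 with P14. Low counts at P14 limit what could be seen there.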
